A study of Mus musculus with 24 samples.

Results

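Messenger RNA of 10 heat shock genes was measured in 24 mouse livers, 6 from normal controls and 18 from a steatohepatitis model. The genes are Hspa1a, Hspa1b, Hsp90aa1, Hspb1, Dnajb1 and Hsph1, grouped here as the 6 inducible genes, and Hspa8, Hsp90ab1, Hspd1 and Hspe1, grouped as the 4 constitutive ones. They were taken by symbol from the 78298 gene rows of the count table, and all 10 passed the expression filter into the test across 17456 genes. Each library holds polyadenylated RNA of liver tissue and is taken as 1 mouse, as the labels number them. The labels give both groups no strain, sex, age, diet, duration or genotype, so the model is known only as steatohepatitis, a liver that holds fat and is inflamed. In whole tissue, fewer cells of a type and less RNA per cell cannot be told apart.

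Heat shock proteins are chaperones that bind unfolded or stressed proteins and help them fold. HSP70 proteins work with J-domain partners such as DNAJB1 and nucleotide exchange factors such as HSPH1, HSP90 proteins finish the folding of kinases and steroid receptors, HSPB1 is a small chaperone that holds unfolded proteins without using ATP, and the HSPD1 and HSPE1 proteins form the folding chamber of mitochondria. Heat shock factor 1 (HSF1) raises the inducible genes by binding heat shock elements, inverted repeats of GAA, in their promoters. The constitutive genes are abundant in unstressed cells, and several of them also carry such elements.

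The promoters are shown because 2 pairs among the 10 genes share sequence there. RefSeq promoter windows, which run from 250 bases before to 50 after an annotated start in GRCm38.p6, were at hand for 7 of the 10 genes in 10 windows. They were searched on both strands for alternating GAA and TTC units 2 bases apart, with 3 units (GAANNTTCNNGAA or TTCNNGAANNTTC) or 2 units (GAANNTTC or TTCNNGAA). Of all 32851 windows in the table, 0.603% held a 3-unit match and 15.1% a 2-unit match, and every 3-unit match holds 2-unit matches. Among the 7 genes searched, 3 had a 3-unit match (Hspd1, Hspe1 and Hsph1) and 6 a 2-unit match, and neither Dnajb1 window had either. The 3-unit match of Hsph1 lay after the annotated start in both of its windows. Hspa8, Hsp90aa1 and Hsp90ab1 had no window and were not searched. The 250 bases before the start are printed 5′ to 3′ in the direction of the gene, with matches in capitals. Hspa1a lies at chr17:34972157-34972406 and Hspa1b at chr17:34959239-34959488, both on the minus strand. Hspb1 lies at chr5:135887669-135887918 and Hspe1 at chr1:55087898-55088147, both on the plus strand.
Hspa1a: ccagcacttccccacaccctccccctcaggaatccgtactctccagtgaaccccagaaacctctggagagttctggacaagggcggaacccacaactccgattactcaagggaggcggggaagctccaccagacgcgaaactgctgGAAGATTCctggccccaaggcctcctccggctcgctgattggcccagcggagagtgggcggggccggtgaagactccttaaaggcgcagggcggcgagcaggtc
Hspa1b: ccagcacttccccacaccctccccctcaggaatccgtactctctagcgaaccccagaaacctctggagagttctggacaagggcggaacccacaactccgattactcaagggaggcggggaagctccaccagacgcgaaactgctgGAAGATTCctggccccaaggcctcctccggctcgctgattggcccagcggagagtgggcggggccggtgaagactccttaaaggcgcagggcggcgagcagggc
Hspb1: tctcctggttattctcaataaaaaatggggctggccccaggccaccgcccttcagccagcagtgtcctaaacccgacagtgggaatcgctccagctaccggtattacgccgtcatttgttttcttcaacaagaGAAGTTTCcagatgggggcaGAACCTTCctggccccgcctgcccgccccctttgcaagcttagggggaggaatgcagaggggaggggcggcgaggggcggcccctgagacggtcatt
Hspe1: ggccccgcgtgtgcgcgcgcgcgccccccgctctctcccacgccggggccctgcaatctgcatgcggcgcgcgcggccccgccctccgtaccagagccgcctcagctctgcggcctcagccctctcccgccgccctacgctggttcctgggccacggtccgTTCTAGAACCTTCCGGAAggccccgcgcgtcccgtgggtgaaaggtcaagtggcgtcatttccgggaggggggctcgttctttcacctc
The Hspa1a and Hspa1b windows were identical at 296 of 300 positions. The 18 capital bases of Hspe1, at chr1:55088059-55088076, chain 4 units, and the same bases, read on the other strand, were the 3-unit match of an Hspd1 window. The other Hspd1 window held no match of either form. The 2 mitochondrial genes thus share 1 matched stretch, in only 1 of the 2 Hspd1 windows. A match describes letters in a window and does not show that a factor was bound there.

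Library totals lay between 31600129 and 49532934 counts in controls and between 32201159 and 58413267 in model mice, and mitochondrial transcripts took 3.60% to 5.94% and 4.11% to 8.09% of them. Levels are in CPM, the usual scaling of counts to a common library size, here adjusted by trimmed means of M-values (TMM). A gene was called when the edgeR quasi-likelihood test gave an adjusted p below 0.05 by the Benjamini-Hochberg method over all genes tested. By that rule 60.0% of all genes tested were called, 31.2% higher and 28.8% lower in model livers. In 6.02% of genes every model mouse lay below every control, and in 9.67% every one lay above.

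Of the 10 heat shock genes, 8 fell in the model livers, beside 28.8% of all genes tested, 1 rose, beside 31.2%, and 1 was not called. Their fold changes on the log2 scale had a median of -0.35, beside 0.012 over all genes tested. The count depended on the scaling. With upper-quartile factors 4 of the 10 were called lower. With library totals alone, which moves the median of all genes to 0.34, 2 were called lower. The changes were modest: no gene moved by as much as 2-fold, and the largest falls were 1.87-fold for Hspa1b and 1.83-fold for Hsph1. The levels of all 10 genes in each liver are plotted together.

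**Figure D1:**
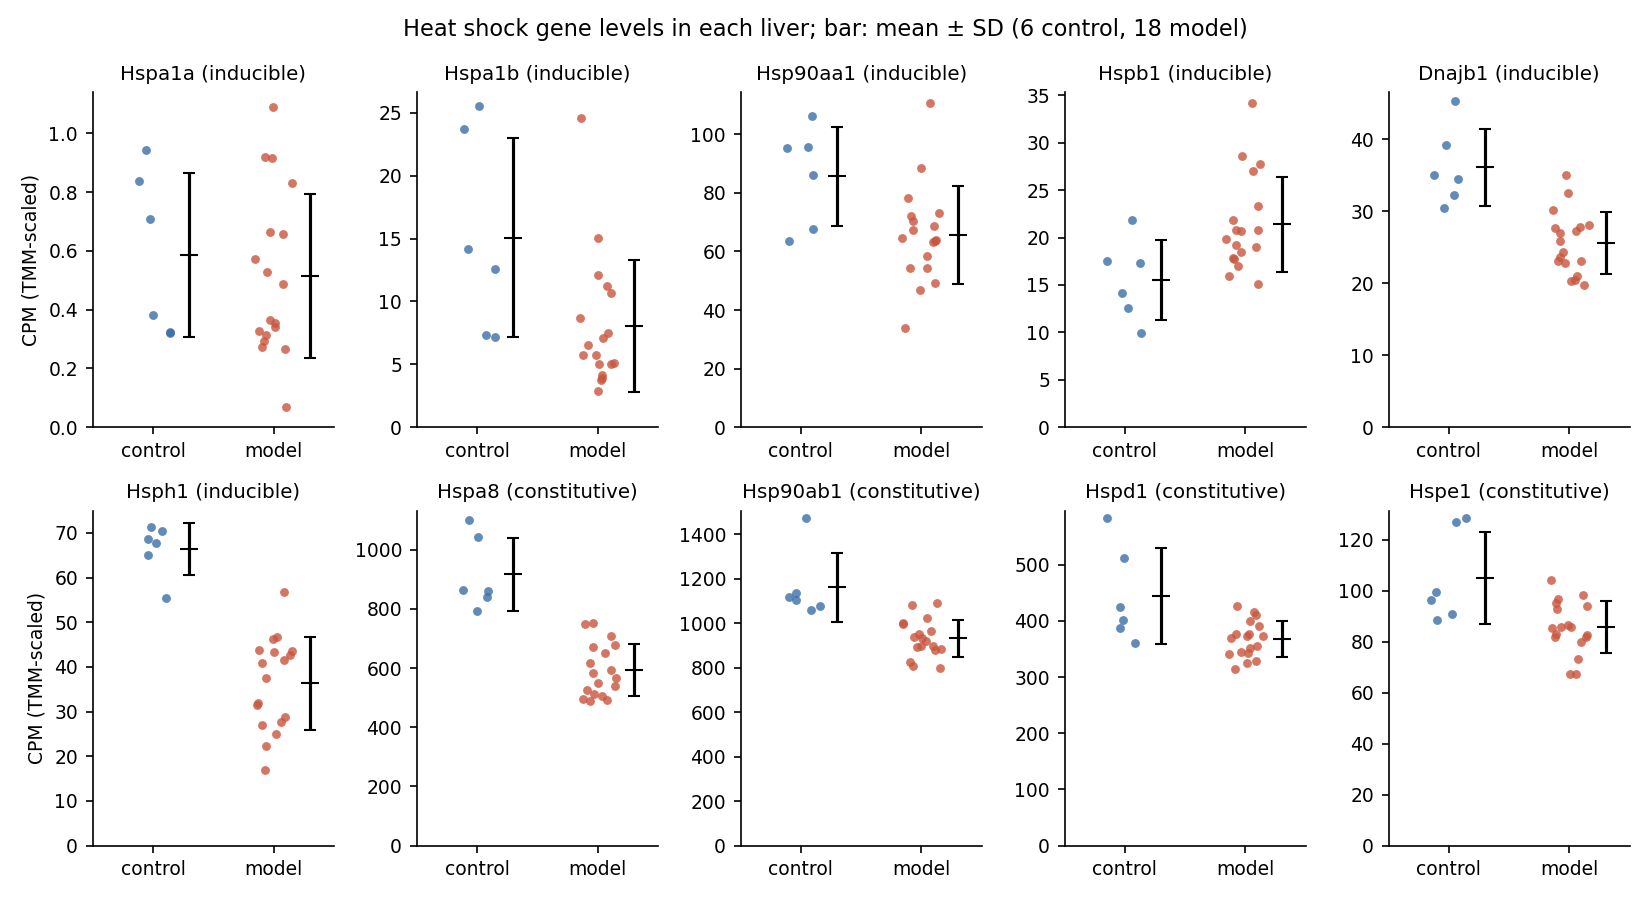
CPM of each heat shock gene in every liver (y axis from 0, TMM-scaled CPM), with controls in blue, model mice in red and bars for the mean ± SD of 6 and 18 mice. For Hspa8 all 18 model mice lie below all controls, for Hspb1 the model mice lie higher, and for Hspa1a the groups overlap widely.

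Hspa8 encodes HSC70, the HSP70 protein that cells make at all times. It lies on chromosome 9 from 40712280 to 40721383 in GRCm39, the build of the deposited coordinates. Control livers held 791.6 to 1102 CPM with a median of 861.4, and model livers 489.6 to 751.4 CPM with a median of 575.2. The groups did not overlap, as in 6.02% of all genes tested. The mean fell from 916.4 ± 125.2 (SD, n = 6) to 593.6 ± 88.7 CPM (SD, n = 18). That is -0.63 on the log2 scale (SE 0.095, edgeR adjusted p = 2.86e-06). Among all genes tested, 8.20% had a lower fold change.

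Hspa1a and Hspa1b encode stress-inducible HSP70 proteins. They are neighbouring genes on chromosome 17, at 35188166 to 35191132 and 35175412 to 35178214, with starts 12918 bases apart on the same strand. Because the copies are near-identical, how the counting divided their reads is unknown and neither value is certain alone. Hspa1b ranged from 7.14 to 25.5 CPM in controls, with a median of 13.4, and from 2.88 to 24.6 CPM in model mice, with a median of 6.14. Most model mice were low, 11 of 18 below every control, while model mouse 10 stood at 24.6 CPM, within the control range. The gene fell by 0.90 on the log2 scale (SE 0.35, edgeR adjusted p = 0.0282). The call was lost without control 3 (log2 fold change -0.69, adjusted p = 0.116) or control 5 (-0.74, adjusted p = 0.0988), the controls with the most Hspa1b. Hspa1a was far lower, at 0.32 to 0.94 CPM in controls (median 0.55) and 0.07 to 1.09 CPM in model mice (median 0.43), or 3 to 51 counts per model library. Its groups overlapped, and the difference was -0.17 on the log2 scale (SE 0.35, adjusted p = 0.697). With the counts of both genes summed into 1 row the fold change was -0.87 (SE 0.345, adjusted p = 0.0328).

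The HSP90 genes also fell, the constitutive one with the smaller error. Hsp90ab1 (chromosome 17, 45878701 to 45884197) was the most abundant of the 10 genes, at 1060 to 1473 CPM in controls (median 1111) and 800.7 to 1093 CPM in model mice (median 927.8). All but 2 model mice lay below every control. Its log2 fold change was -0.32 (SE 0.073, edgeR adjusted p = 0.000531), but 0.011 and not called with library totals alone. Hsp90aa1 (chromosome 12, 110657039 to 110669162), the stress-inducible form, ranged from 63.5 to 106.1 CPM in controls (median 90.7) and from 33.9 to 110.6 CPM in model mice (median 64.4). Here the groups overlapped widely, 7 of 18 model mice lay below every control, and model mouse 10 was above them all. The fall of 0.38 on the log2 scale (SE 0.15, adjusted p = 0.0315) was no longer called without control 1 (adjusted p = 0.0724), control 3 (0.0701) or control 4 (0.101).

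Both partners of HSP70 fell. Hsph1 encodes HSP110, which releases nucleotide from HSP70, and lies on chromosome 5 from 149537752 to 149559841. Controls kept within a narrow band of 55.4 to 71.3 CPM (median 68.1), and model mice spread from 16.9 to 56.9 CPM (median 39.2). All but 1 of the 18 model mice lay below every control, the exception being model mouse 10. The log2 fold change was -0.87 (SE 0.16, edgeR adjusted p = 6.42e-05), and 4.35% of all genes tested had a lower one. Dnajb1 encodes the J-domain protein HSP40, which hands clients to HSP70, and lies on chromosome 8 from 84334822 to 84339282. It went from 30.5 to 45.3 CPM in controls (median 34.8) to between 19.7 and 35.0 CPM in model mice (median 25.1). Only 2 model mice reached the control range. The log2 fold change was -0.50 (SE 0.10, edgeR adjusted p = 0.000141), but -0.17 and not called with library totals alone (adjusted p = 0.146).

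Hspb1 was the 1 gene of the 10 that rose. It encodes HSP27, a small heat shock protein that also binds actin filaments, and lies on chromosome 5 from 135916773 to 135918417. Controls ranged from 9.94 to 21.9 CPM (median 15.7) and model mice from 15.2 to 34.1 CPM (median 20.2). The groups overlapped, and 6 of 18 model mice were above every control. The mean went from 15.5 ± 4.23 (SD, n = 6) to 21.4 ± 5.02 CPM (SD, n = 18), which is 0.46 on the log2 scale (SE 0.16, edgeR adjusted p = 0.0122). Without control 6, the lowest control, it was 0.36 (adjusted p = 0.0502). Markers of most cell types other than hepatocytes moved the same way as Hspb1: 8 of 9 endothelial markers were higher, their summed level going from 53.3 to 104.8 CPM in controls to 71.9 to 250 CPM in model mice. Of 10 stellate and fibroblast markers 8 were higher (55.7 to 138.6 CPM summed, against 159.6 to 408.8), and of 10 macrophage markers all 10 (31.2 to 72.4 CPM, against 178.4 to 957.1). Of 7 cholangiocyte markers only 3 were higher and 4 were not called, beside 31.2% higher over all genes tested. Their summed level (44.8 to 83.7 CPM, against 48.9 to 443.0) was mostly that of Spp1, with means of 47.5 and 184.3 CPM. All 8 lymphocyte markers (2.43 to 4.07 CPM, against 3.75 to 13.6) and 4 of 5 neutrophil markers tested (0.63 to 6.06 CPM, against 3.92 to 15.5) were higher too. No marker of these lists was at 0, and the part of these cells in the rise of Hspb1 was not tested. Hepatocyte markers moved with the 8 genes that fell: 8 of 9 tested were lower, the median of the 9 being -0.61 on the log2 scale, with a summed level of 128900 to 191900 CPM in controls and 64910 to 124500 CPM in model mice. Their part in those falls was not tested. Skeletal muscle and exocrine pancreas markers summed to at most 0.27 and 0.92 CPM in any liver.

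The mitochondrial pair fell by similar, small amounts. Hspd1, which encodes HSP60, lies on chromosome 1 from 55116994 to 55127402 on the minus strand, and Hspe1, which encodes its lid HSP10, from 55127291 to 55130466 on the plus strand, so that their starts are 111 bases apart and their 5′ ends overlap by 112 bases. Hspd1 ranged from 360.4 to 583.2 CPM in controls (median 413.0) and from 314.3 to 426.0 CPM in model mice (median 371.5). Hspe1 ranged from 88.6 to 128.5 CPM in controls (median 98.0) and from 67.4 to 104.3 CPM in model mice (median 85.7). Groups overlapped for both genes, with 8 and 12 of 18 model mice below every control. The log2 fold change was -0.27 (SE 0.081, edgeR adjusted p = 0.00493) for Hspd1 and -0.30 (SE 0.087, adjusted p = 0.00482) for Hspe1. A row named as a pseudogene copy, Hspd1-ps3, held 27.5% as many counts as Hspd1 and differed by -0.26 on the log2 scale (adjusted p = 0.0661), and whether its reads belong to Hspd1 was not tested. Scaling by library totals alone, which moves the median of all genes to 0.34, turned the values of Hspd1 (0.053), Hspe1 (0.0345) and Hsp90ab1 (0.011) above 0. Taken relative to that median they were -0.29, -0.31 and -0.33.

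The inducible genes were then set against the constitutive ones. Of the 6 inducible genes 4 fell, 1 rose and 1 was not called, with log2 fold changes from -0.90 to 0.46 around a median of -0.44. All 4 constitutive genes fell, with a median of -0.31 and a range from -0.63 to -0.27. Of all genes tested, 28.8% were lower and 31.2% higher. Within a library, where scaling cancels, the inducible HSP70 and HSP90 genes were divided by their constitutive relatives per kilobase of exon, and the 2 constitutive mitochondrial genes, lid and chamber, by each other. Hspa1a and Hspa1b together stood at 2.45 ± 0.98% of Hspa8 in controls (SD, n = 6) and 2.10 ± 1.15% in model mice (SD, n = 18). The log2 ratio differed by -0.29, with a 95% interval from -0.94 to 0.37 (exact permutation test, two-sided, with all 134596 ways to divide the mice, p = 0.373, adjusted 0.693 over 3 ratios). Hsp90aa1 stood at 5.77 ± 1.51% of Hsp90ab1 in controls and 5.37 ± 1.18% in model mice, a log2 difference of -0.09 with an interval from -0.45 to 0.27 (exact permutation p = 0.610, adjusted 0.693). Hspe1 stood at 42.6 ± 2.41% of Hspd1 and 41.9 ± 5.07%, a log2 difference of -0.03 with an interval from -0.17 to 0.12 (exact permutation p = 0.693, adjusted 0.693). None of the 3 ratios differed beyond the spread between mice, and the first interval is wide enough to hold a near 2-fold lower ratio. The groups overlapped in each plot of the ratios.

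**Figure D2:**
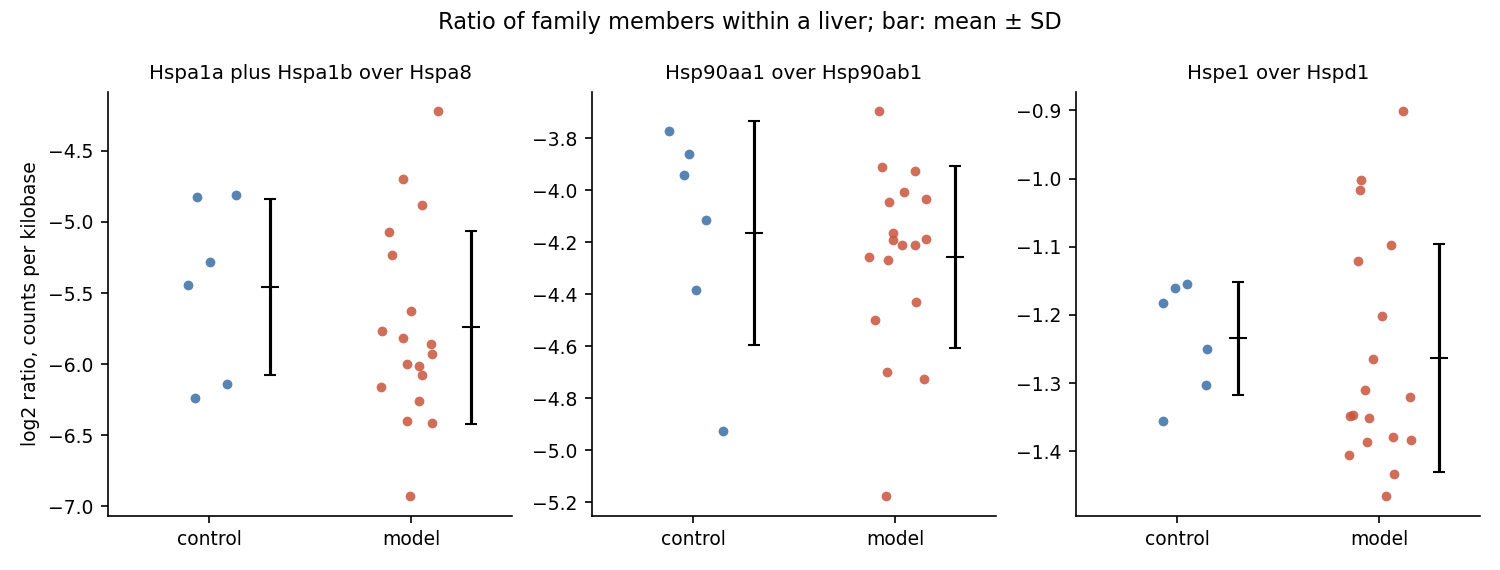
Log2 ratio of inducible to constitutive HSP70 and HSP90 genes, and of Hspe1 to Hspd1, within each liver, per kilobase of exon (y axis), for controls (blue) and model mice (red), with bars for the mean ± SD of 6 and 18 mice. In each panel the groups overlap, and the ratio of Hspa1a plus Hspa1b to Hspa8 spans from -6.93 to -4.22 among model mice.

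Per kilobase of exon, the constitutive genes stood far above the inducible ones in both groups. In controls the order was Hsp90ab1 at 387.3 ± 51.7 CPM per kilobase (SD, n = 6), Hspa8 at 213.1 ± 29.1, Hspd1 at 168.4 ± 32.4 and Hspe1 at 71.4 ± 12.2. The bands of 1 SD around Hspa8 and Hspd1 overlapped. Then came Hsp90aa1 at 21.8 ± 4.30, Hspb1 at 15.1 ± 4.10, Dnajb1 at 11.3 ± 1.67, Hsph1 at 9.14 ± 0.80, Hspa1b at 5.38 ± 2.83 and Hspa1a at 0.20 ± 0.094. From Hsp90aa1 to Hsph1 the bands of 1 SD around neighbours in this order overlapped. In model mice Hspd1, at 139.2 ± 12.3 CPM per kilobase (SD, n = 18), matched Hspa8 at 138.0 ± 20.6. Hspb1, at 20.8 ± 4.87, stood above Hsp90aa1 at 16.7 ± 4.27, within 1 SD of it.

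The genes differed in how much they varied between animals of a group. In model mice the SD of log2 CPM ran from 0.24 for Dnajb1 to 0.79 for Hspa1b and 0.89 for Hspa1a among the inducible genes. It ran from 0.13 for Hspd1 to 0.21 for Hspa8 among the constitutive ones. Hspa1a had only 3 to 51 counts per model library. In controls the 2 classes overlapped. The inducible genes ran from 0.13 for Hsph1 to 0.79 for Hspa1b, and the constitutive ones from 0.18 for Hsp90ab1 to 0.27 for Hspd1. The highest model mouse had 8.55 times the Hspa1b of the lowest, 3.36 times the Hsph1 and 1.36 times the Hspd1. Hsph1 varied more among model mice (SD 0.45) than among controls (0.13), a difference that was not tested.

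Several heat shock genes rose and fell together from mouse to mouse within the model group. Over 8 relations fixed for the 18 model mice, the closest was that of Hspa1b with Dnajb1, at r = 0.85 and Spearman's rho = 0.88 (permutation p = 2e-05 for both, adjusted 0.00016). Hspa1b followed Hsph1 at r = 0.75 (rho = 0.75, permutation p = 0.00033 and 0.00056, adjusted 0.00088 and 0.00149). It followed Hspa8 at r = 0.60 (rho = 0.65, permutation p = 0.0083 and 0.00441, adjusted 0.0111 and 0.00588). Hspa1b and its copy Hspa1a gave r = 0.80 (rho = 0.78, permutation p = 4e-05 and 0.00019, adjusted 0.00016 and 0.00076), where shared reads may add to the likeness. Hsp90aa1 followed Hsph1 at r = 0.65 (rho = 0.70, permutation p = 0.00364 and 0.00185, adjusted 0.00582 and 0.0037). Hsp90ab1 followed Hspa8 at r = 0.68 (rho = 0.68, permutation p = 0.0018 and 0.00237, adjusted 0.0036 and 0.00379). These 6 relations still passed without the 2 mice farthest from the median of the first gene, with r from 0.55 to 0.84. Relations with the mitochondrial genes passed in neither case tested. Hspa1b with Hspd1 gave r = 0.37 (rho = 0.38, permutation p = 0.126 and 0.118, adjusted 0.126 and 0.135). Hspd1 with Hspe1, which share a promoter region, gave r = 0.43 (rho = 0.33, permutation p = 0.0777 and 0.175, adjusted 0.0888 and 0.175). Without the 2 farthest mice these 2 values were 0.38 and 0.31, and on residuals of the clock gene index described further on Hspd1 with Hspe1 passed (r = 0.52). As a description, Hspd1 gave r = 0.71 with Hspa8, 0.60 with Hsp90aa1 and 0.60 with Hsph1, and Hspe1 gave at most 0.44, with Hsp90aa1. Hspb1 followed none of the others closely, with r from -0.41 with Hsph1 to 0.23 with Hspa1a, given as a description.

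**Figure D3:**
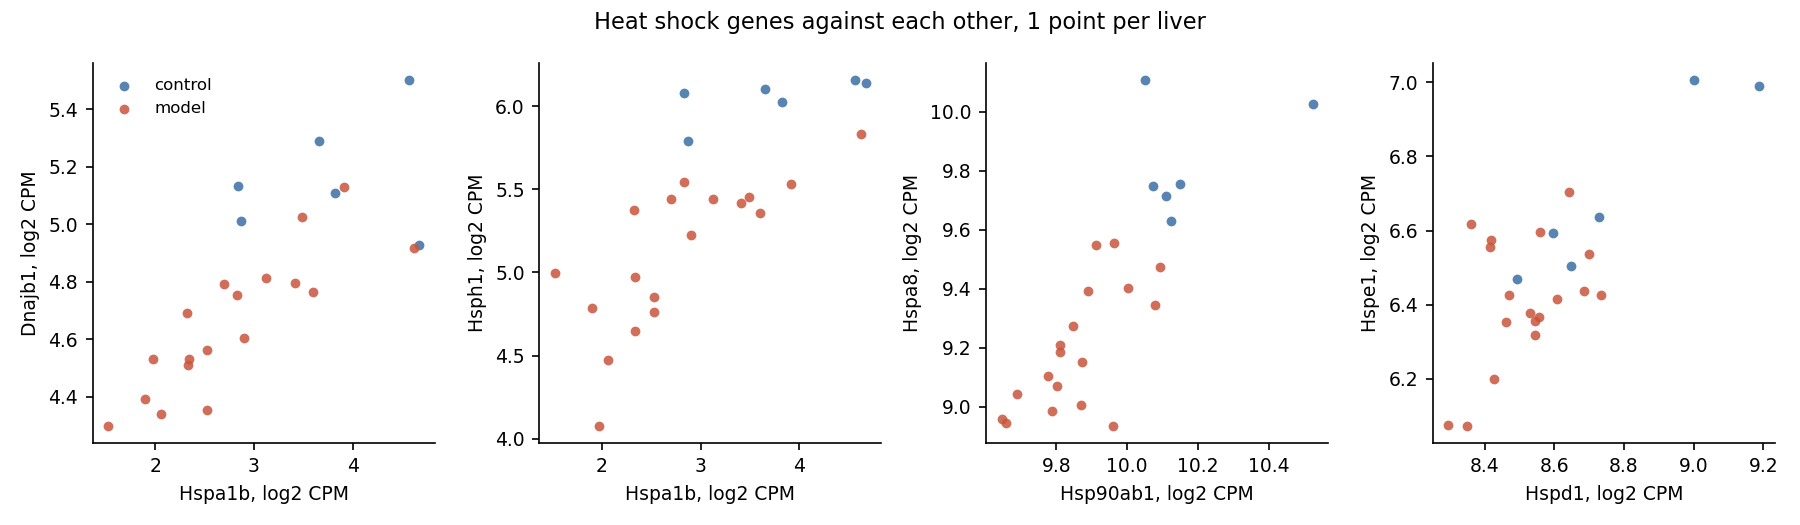
Log2 CPM of 2 heat shock genes against each other, 1 point per liver, with controls in blue and model mice in red. Among model mice Dnajb1 and Hsph1 climb with Hspa1b (r = 0.85 and 0.75) and Hspa8 with Hsp90ab1 (r = 0.68), while Hspe1 scatters against Hspd1 (r = 0.43).

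The genes outside the 10 that most resembled 3 of them among model mice were ranked over the 9610 genes whose mean reached 5 CPM, as a description. Nearest to Hspa1b were Ccdc117 (r = 0.88), Bicd2 (0.79), Prpf3 (0.77), Zfp398 (0.74) and Zfp24 (0.72). Nearest to Hsph1 were again Ccdc117 (0.86), then Gm15459 (0.84), Jmy (0.84), Pde4dip (0.83) and Crkl (0.83). Hspd1 was most like Dars (0.89), Lamp2 (0.88), Tmem33 (0.88), Etfrf1 (0.87) and Tm9sf2 (0.87). Hspa1b and Hsph1 thus shared a nearest gene, and none of the 5 for Hspd1 was among theirs.

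Of 99 other chaperone genes tested, in 8 lists, 59 (59.6%) were lower, beside 28.8% of all genes tested, and 8 were higher, beside 31.2%, and the median was -0.27 on the log2 scale. With library totals alone 21 were lower and 26 higher, beside 1562 lower and 9406 higher among all 17456 genes tested. That scaling also ended the calls of Hikeshi, Bag4, Cdc37, Grpel1, Pfdn6, Cct2, Cct7, Sdf2l1 and Hspa5, and of the genes given below with a value under it. Among regulators, Hsf1, which encodes the factor named above, went from 14.0 ± 1.60 CPM (SD, n = 6) to 11.5 ± 0.695 CPM (SD, n = 18). It fell by 0.28 on the log2 scale (SE 0.060, edgeR adjusted p = 0.000227), but it was at 0.047 with library totals alone and at -0.079 with the clock gene index as a covariate (adjusted p = 0.515). Hikeshi, the carrier that takes HSP70 into the nucleus, fell by 0.48, and Hsbp1, which binds and restrains HSF1, rose by 0.28, which was 0.17 with that covariate (adjusted p = 0.294). Hsf2, a second heat shock factor gene, fell by 0.32, was not called without control 1 (-0.19, adjusted p = 0.0766) and stood at 0.0048 with library totals alone and 0.028 with the covariate. Of 16 other cytosolic targets of heat shock factors, 7 were lower and 2 higher. Those lower included Hspa2 (-0.78), an HSP70 relative, and Ahsa2 (-0.73), an HSP90 activator relative. Hmox1, the heme oxygenase gene that other stress factors also drive, rose by 1.90 on the log2 scale, and Bag3, a partner of HSP70 in autophagy, was not called (-0.18, adjusted p = 0.082), but was without control 2 (adjusted p = 0.0202) or model mouse 7 (0.0421). Of 3 small heat shock genes tested besides Hspb1, Hspb6 fell (-0.62) and 2 were not called.

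Partners of the HSP70 and HSP90 proteins were lower in most cases and higher in none. Of 19 HSP70 partners 14 fell, among them the J-domain genes Dnajb5 (-0.59), Dnajb6 (-0.55) and Dnaja2 (-0.51) and the exchange factor gene Bag4 (-0.51). Of 13 HSP90 partners 7 fell. Fkbp5, an immunophilin gene that glucocorticoids induce, had a log2 fold change of -2.75, and Nudc (-0.56), Cdc37l1 (-0.49) and Cdc37 (-0.39) fell by less. Of 14 subunit genes of the TRiC chamber, which folds actin and tubulin, and of prefoldin, which feeds it, 10 fell and 2 rose, with Cct5 (-0.63), Pfdn6 (-0.47), Cct2 (-0.44) and Cct7 (-0.44) lowest. Of 16 mitochondrial chaperones and proteases 6 fell and 3 rose, beside 28.8% lower and 31.2% higher of all genes tested. The median of that list was -0.10 on the log2 scale. Hspa9, the HSP70 of mitochondria, fell by 0.25 on the log2 scale (SE 0.063, edgeR adjusted p = 0.0011; 0.076 with library totals alone), and its partners Dnaja3 (-0.52) and Grpel1 (-0.38) fell. The unfoldase gene Clpx fell by 1.21, with 2 of 18 model mice below every control, and stood at 0.053 with the clock covariate (adjusted p = 0.795). Hscb, a J-domain gene of iron-sulfur assembly, rose by 0.76, and was not called with the covariate (0.51, adjusted p = 0.0684). Of 13 chaperones of the endoplasmic reticulum 11 fell, with Hyou1 (-0.84), Creld2 (-0.83), Sdf2l1 (-0.83) and Dnajc3 (-0.76) lowest. With the clock covariate Sdf2l1 (-0.24, adjusted p = 0.631) and Creld2 (-0.57, adjusted p = 0.0991) were not called. Hspa5, the HSP70 of that compartment, fell by 0.40 (adjusted p = 0.0215), a call lost without control 1 (0.0699) or control 3 (0.0810). Hsp90b1, its HSP90, fell by 0.27 (adjusted p = 0.0472; 0.058 on the log2 scale with library totals alone). That call was lost without any 1 of controls 1, 3, 4 and 6 or of model mice 1, 2, 3, 5, 6, 7, 10, 14 and 15, with adjusted p up to 0.132. The Hspd1 and Hspe1 values thus lay near that of Hspa9, and that of Hspa8 was below those of both Hspa5 and Hspa9, differences that were not tested.

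**Figure D4:**
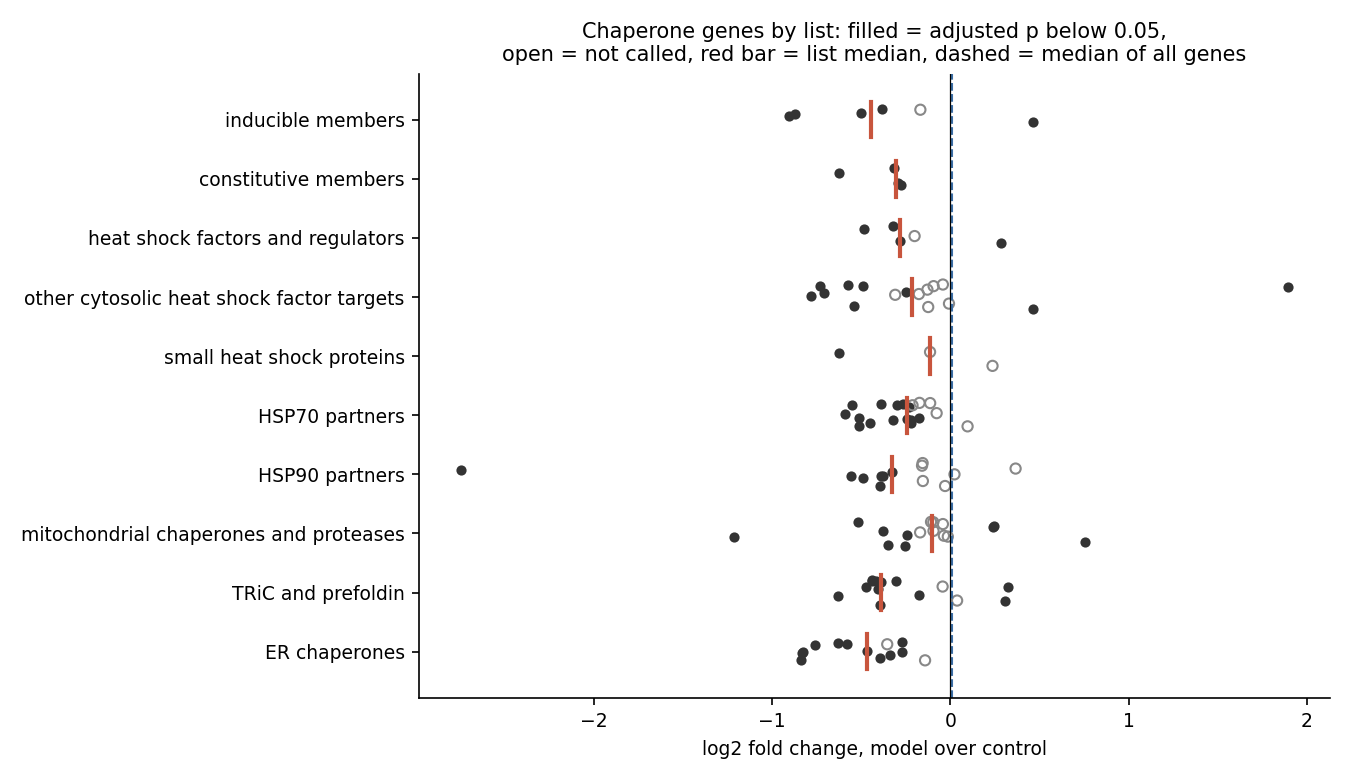
Log2 fold change of model over control for each gene tested in the heat shock and chaperone lists (x axis), with filled points for genes called at an adjusted p below 0.05, open points for genes not called, a red bar for the list median and a dashed line for the median of all genes. List medians run from -0.47 for chaperones of the endoplasmic reticulum to -0.10 for mitochondrial ones, and Fkbp5 (-2.75) and Hmox1 (1.90) lie farthest out.

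Clock genes differed between the groups beside the heat shock genes. On the side of the clock that Bmal1 stands for, Bmal1 (-2.53), Cry1 (-2.27), Nfil3 (-2.14) and Clock (-0.79) were lower, 4 of 5 tested, with summed levels of 79.4 to 185.0 CPM in controls and 36.0 to 56.1 CPM in model mice. On the opposite side 6 of 11 were higher, among them Dbp (2.68), Bhlhe41 (2.64), Nr1d1 (2.13) and Per3 (1.00), and 1 was lower. Summed levels there were 245.5 to 645.0 CPM in controls and 476.0 to 628.9 CPM in model mice. Over all genes tested the shares were 28.8% lower and 31.2% higher. An index, the mean log2 CPM of the first list minus that of the second, lay between -3.19 and -2.16 in model mice and between -0.67 and 1.18 in 5 controls, while control 6 had -3.25. Control 6 held more Hsph1 (68.6 CPM), Hspa8 (863.8), Dnajb1 (39.2), Hsp90ab1 (1136), Hspd1 (512.6) and Hspe1 (128.5) than any of the 18 model mice, and less Hspb1 (9.94). For Hspa1b and Hsp90aa1 16 of 18 model mice lay below control 6, and for Hspa1a 14. It is 1 library, singled out after its index was seen. Only control 6 lay near the model mice on the index, so a fit with the index separates it from the group largely through that library. The part of the clock apart from the group was thus not tested, and values with the covariate, here and above, only describe that fit. With the index as a covariate 6 of the 8 falls and the rise of Hspb1 were still called, with Hspa8 at -0.64 (edgeR adjusted p = 0.00252), Hsph1 at -0.85 (0.0132) and Hspb1 at 0.77 (0.0328). Hspa1b (-1.04, adjusted p = 0.178) and Hsp90aa1 (-0.34, adjusted p = 0.304) were not. Beyond the genes already named, the covariate also ended the calls of Bag4 (-0.46, adjusted p = 0.0666), Hspa5 (-0.27, 0.401), Hsp90b1 (-0.23, 0.356), Atf3 (1.33, 0.077), Fos (1.21, 0.195) and Ier3 (1.32, 0.0603), and of Clock (-0.083) and Per3 (-0.31), which are part of the index.

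Of 12 immediate early genes, which respond within minutes to handling or injury, 6 were called, a share no higher than the 60.0% of all genes tested. The 4 higher were Atf3 (2.27), Fos (1.49), Ier3 (1.20) and Fosb (2.41), and the 2 lower Dusp1 (-1.55) and Ier2 (-0.45). Fosb and Ier2 are named here after their values were seen. The summed level of the 12 genes was 119.3 to 358.3 CPM in controls and 118.5 to 299.3 CPM in model mice. Of the cold-inducible RNA-binding protein genes, which respond to temperature opposite to the heat shock genes, Rbm3 rose (0.51, SE 0.11, edgeR adjusted p = 0.000155, but 0.29 and adjusted p = 0.174 with the clock covariate) and Cirbp was not called (-0.12, adjusted p = 0.446), with summed levels of 24.7 to 39.2 CPM and 33.4 to 46.0 CPM. The part of either list in the heat shock changes was not tested beyond the covariate for immediate early genes, with which 7 of the 8 falls were called and Hsp90aa1 was not (-0.26, adjusted p = 0.179).

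**Figure D5:**
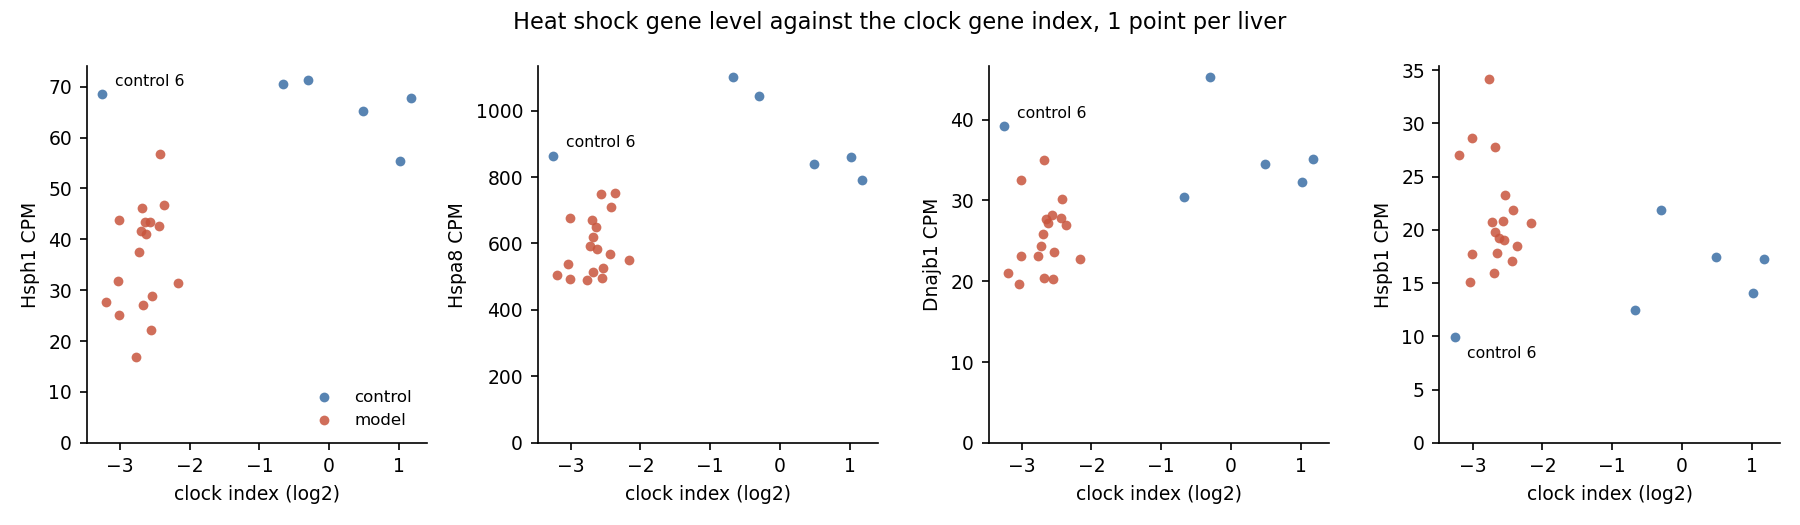
CPM of 4 heat shock genes (y axis from 0) against the clock gene index in log2 units (x axis), 1 point per liver, with controls in blue and model mice in red. Control 6 shares the index of the model mice, at -3.25, and lies above them all for Hsph1, Hspa8 and Dnajb1 and below them all for Hspb1.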

How the data were processed

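Polyadenylated RNA of 24 livers was sequenced from DNA nanoballs, per the labels' protocols. The values the authors deposited are whole-number read counts for each Ensembl gene, with positions in GRCm39 per the submitters' processing notes and a Length column of summed exon bases, another unit, per the file headers. The sources used here do not name the aligner, the counting program, the annotation or the strand setting. Symbols matched 51498 of 78298 IDs, which took 99.6% of counts. No 2 libraries of a group agreed within sampling noise (smallest chi-square per degree of freedom 19.1 over 168 pairs). The labels do not say that mice were separate animals of separate litters or cages, so p-values measure the spread between these samples.

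Groups were compared with edgeR 4.0.16 (R 4.3.3; quasi-likelihood F test, robust, TMM factors, default filter by group, design with the group alone, all 24 libraries). Each SE came from the fold change, as the ratio of its size on the log2 scale to F's square root. Log2 CPM used a prior count of 0.5. Simulated counts of 17166 genes were tested: at 2-fold 78 of 100 altered genes were called, at 1.5-fold 57 of 100, and 12 of 147 calls were false. Only these genes were altered, as many up as down, while 60.0% of genes were called in the data. The rates of the simulation thus need not hold for the data. Ratios added 0.5 counts, with intervals from inverting the exact test, and correlations used 100000 permutations. These used Python 3.11.15 with scipy 1.17.1, numpy 2.4.6 and pandas 2.3.3, and figures matplotlib 3.10.9. The alternatives used limma 3.58.1 and DESeq2 1.42.0. TMM factors were 0.84 ± 0.028 in controls and 1.06 ± 0.061 in model mice. The 10 genes and the lists were chosen with earlier results of these data known. Named list genes are the 4 called genes with the largest change in each list, if their mean reached 1 CPM, with Hsf1, Hspa5, Hsp90b1, Hspa9, Bag3, Cirbp and Rbm3; the 5 genes most like Hspa1b, Hsph1 and Hspd1 had means of 5 CPM or more. A gene that this rule names is not reported here. Protein sequences were not used here.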

Additional observations from a re-analysis of the deposited data

Results flagged for a closer look

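In 6 cases 1 control stood apart from the other 5 by more than the gap that chance gives in about 1 in 20 groups, among 62 values searched. Hsp90ab1 was at 1473 CPM in control 5, against 1060 to 1136 CPM in the other controls, and Cdc37, a partner of its protein, at 136.6 CPM in the same mouse, against 103.6 to 110.4 CPM. Without control 5 Hsp90ab1 was still lower in model mice (log2 fold change -0.245). Control 6 stood apart for Hsbp1 (91.0 CPM, against 80.6 to 84.1) and for the clock genes Dbp (40.5 CPM, against 1.85 to 7.56) and Bhlhe41 (1.86 CPM, against 0.30 to 0.69). Fos was at 2.99 CPM in control 3, against 0.32 to 1.03 CPM.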

How the results depend on the processing

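Hspa8 and Hsph1 kept their calls under every alternative except control 6 as the only control, and RLE factors, DESeq2, limma-voom, a filter of 1 CPM in 6 libraries and the summed Hspa1 row each left 8 lower and 1 higher. The last of these has 1 row for both Hspa1 genes, and the filter leaves Hspa1a untested.

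With library totals alone 9406 genes were higher and 1562 lower, 26 and 21 of the chaperone lists, and 2 of the 10 genes were lower: Hspa1b (-0.58), Hsp90aa1 (-0.062) and Dnajb1 (-0.17) lost their calls, and Hspa1a (0.17), Hsp90ab1 (0.011), Hspd1 (0.053) and Hspe1 (0.0345) changed sign, as did Hsf1 (0.047), Hsf2 (0.0048), Hsp90b1 (0.058), Hspa9 (0.076), Bag3 (0.15) and Cirbp (0.22). The share of higher genes among those called was 52.0% with TMM, 62.8% with the upper quartile and 85.8% for totals, and the median of all genes moved from 0.012 to 0.11 and 0.34. Upper-quartile factors left 4 of the 10 lower, without Hspa1b (-0.80), Hsp90aa1 (-0.29), Hspd1 (-0.18) and Hspe1 (-0.20).

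With no filter Hspa1b (-0.90) and Hsp90aa1 (-0.37) were not called. At a threshold of 0.01 the 10 genes had 0 higher calls, the test being otherwise the same, and Hspa1b (-0.90), Hsp90aa1 (-0.38) and Hspb1 (0.46) were lost. The clock covariate, which nearly coincides with the group, left 3104 genes lower and 2 chaperone list genes higher. With it Hspa1b was at -1.04, Hsp90aa1 at -0.34, Hsf2 at 0.028, Clpx at 0.053 and Per3 at -0.31. The immediate early covariate gave Hsp90aa1 -0.26. On residuals of the clock index Hspd1 with Hspe1 passed (r = 0.52).

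The replicate block, over the 6 numbers both groups share, gave 0 higher calls among the 10 genes (Hspb1 0.52), 5 among the chaperone lists and Cirbp 0.040. It moved Hspa1b to -1.51, Hsph1 to -1.35 and Hsp90aa1 to -0.73, and Hsf1 (-0.26) and Hspa9 (-0.29) lost their calls. Model mice 7 to 18, whose numbers no control shares, add nothing to the group difference in that fit. The fit thus sets the 6 controls against model mice 1 to 6. In those model mice Hsph1 was 16.9 to 37.4 CPM, beside a mean of 36.3 CPM over all 18. Same-numbered libraries did not deviate together (r from -0.48 to 0.14). No pairing by number was seen, which does not show that the mice were unpaired.

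An alternative chosen after seeing the data took control 6 as the only control and left 2588 higher and 1899 lower genes, 1 and 30 of the chaperone lists, and 3 of the 10 lower. The calls of Hspa1b (-0.64), Hsp90aa1 (-0.38), Hsph1 (-0.91), Hspa8 (-0.53) and Hsp90ab1 (-0.28) were lost, and Hsf2 (0.022), Clpx (0.34), Clock (0.017) and Per3 (-0.53) changed sign; the lone control is assumed to vary like the model mice.

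With each library left out in turn, higher calls among the 10 genes ranged from 0 to 1 (0 without control 6) and lower calls from 6 to 8. Hspa1a ranged from -0.30 to 0.013 (above 0 without control 5), Hspa1b from -1.09 to -0.69, Hsp90aa1 from -0.46 to -0.32, Hspb1 from 0.36 to 0.58 and Hsp90ab1 from -0.35 to -0.25. The cause of these changes was not tested. Hspa1a had 3 to 51 counts per model library, and its SE of 0.35 was like that of the better covered Hspa1b.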

Other observations

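Among other chaperone genes with little change, Dnaja1, a J-domain partner of HSP70, stood at 123 ± 21.3 CPM in controls (SD, n = 6) and 119 ± 16.6 CPM in model mice (SD, n = 18), and Ubb, a polyubiquitin gene, at 406 ± 38.4 and 404 ± 48.2 CPM. Hspb8, a small heat shock gene, was more abundant than Hspb1, at 186 ± 33.9 and 172 ± 28.0 CPM, and was not called (edgeR adjusted p = 0.38). Stip1, Ahsa1 and Fkbp4 link HSP70 to HSP90 or drive the HSP90 cycle. Each lay below every control in 18 of 18 model mice, as in 6.02% of all genes tested. Their log2 fold changes were -0.58, -0.54 and -0.49. These genes were chosen after their values were seen.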
